A study of Homo sapiens with 6 samples.

Results

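The NF-κB subunits and their inhibitors were followed in Caki-1 cells with and without an edited VHL gene. The 10 genes, of 60708 in the count table, were taken by name: the 5 genes of the DNA-binding subunits (NFKB1, NFKB2, RELA, RELB and REL), 3 genes of IκB inhibitors (NFKBIA, NFKBIB and NFKBIE), and TNFAIP3 and BIRC3, which encode ubiquitin-handling regulators of the same pathway. Caki-1 is an established human clear cell carcinoma line. The VC samples (3) carry the genotype WT and received lentiviral CRISPR infection with the vector only, and the VHL-KO samples (3) received virus with a guide RNA against VHL. Puromycin selection is described for the infected cells, and the knockout cells were grown out as clones, without a statement of how many clones were sequenced. A trait of a single clone and an effect of VHL loss therefore cannot be told apart. Nothing says that the replicates came from separate cultures, so the p-values below measure only the spread between these samples, which may be technical.

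NF-κB proteins bind DNA as dimers. RELA, RELB and REL carry a transactivation domain, whereas NFKB1 and NFKB2 encode the precursors p105 and p100, which are processed to p50 and p52 and hold partner subunits in the cytoplasm until then. IκB proteins mask the dimers until IκB kinase marks them for degradation (the canonical route), and the kinase NIK triggers the processing of p100 (the noncanonical route). Several of these genes are themselves known NF-κB targets, which gives the pathway its feedback, and VHL-deficient kidney cancer cells are a setting in which NF-κB activity has often been studied.

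The count tables made by the authors held 31789923, 28463579 and 34881739 reads for VC replicates 1 to 3 and 29139722, 22805385 and 22628246 for the VHL-KO replicates. Levels are given as CPM, the counts divided by library size scaled with edgeR's TMM factors. VHL, the edited gene, was at 42.6, 37.8 and 40.1 CPM in VC replicates 1 to 3 and at 34.8, 30.4 and 30.5 CPM in VHL-KO replicates 1 to 3. Every VHL-KO sample was below every VC sample, although most of the mRNA was still present. The paper reports immunoblots, which read protein, that verified the loss of VHL in its Caki-1 knockout cells. A count per gene does not show the edit itself, and 23.5% of the exonic bases of VHL lie opposite another gene. Its log2 fold change was -0.33, with a standard error of 0.11 (edgeR quasi-likelihood F test, Benjamini-Hochberg adjusted p = 0.0109). The call was lost when each library was given offsets for transcript GC content and length (the offsets below), at -0.11, with upper quartile factors, at -0.22, and without VC replicate 1, at -0.28, or VHL-KO replicate 2, at -0.30 (edgeR adjusted p up to 0.265 over its alternatives). Of 15 genes known as targets of HIF, the transcription factors that VHL marks for degradation, 13 rose and 2 fell, against 28.5% and 31.2% of all genes tested. NDRG1, a stress-response gene, stood at 12.1, 11.1 and 11.7 CPM in VC and 729, 774 and 781 CPM in VHL-KO samples, and CA12, a carbonic anhydrase, at 3.84, 4.21 and 4.32 against 63.3, 63.7 and 63.2 CPM. Another carbonic anhydrase gene, CA9, had 2 counts over the VC samples and 768 over the VHL-KO samples, a scaled ratio of 562 with a 95% counting interval of 155 to 4647, although 35.7% of its exonic bases lie opposite another gene. The VC counts of CA9 were all in VC replicate 3, and its log2 fold change of 8.85 was 11.21 without that sample. The genes that fell, EGLN3 and EGLN1, at -1.26 and -0.41, are named after their values were seen, and EGLN1 was called under 8 of the 15 alternatives and not with the offsets, at -0.19. Of the exonic bases of EGLN1, 55.8% lie inside another gene on the same strand, so that its level is uncertain.

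All 10 NF-κB genes passed the filter of at least 10 reads in any sample. NFKB1 fell and RELA and RELB rose in VHL-KO cells, each by less than 2-fold and with no overlap between the groups, while NFKB2 and NFKBIA did not pass the test. The calls of RELA and RELB ended with the offsets, at 0.095 and 0.0011. At an adjusted p under 0.05, 3 genes were called higher (RELA, RELB and BIRC3) and 2 lower (NFKB1 and NFKBIB), and 5 were not called. Of all 17401 genes tested, 59.7% were called, 28.5% higher and 31.2% lower, so that 5 of 10 is a share near the background. The groups did not overlap for 4 of the 10 genes, against 64.7% of all genes tested. With library size alone 2 of the 10 were called higher and 4 lower, with upper quartile factors 4 and 1, and with the offsets 2 (BIRC3 and TNFAIP3) and 4. In the same order, all genes tested split into 3764 higher and 6737 lower, 5712 and 4668, and 4661 and 5840. TMM factors put the median over every tested gene at -0.01 and that over the 10 genes at 0.19. These medians were -0.20 and -0.0051 when only library size was used, and 0.10 and 0.30 under upper quartile factors. With the offsets they were alike, at -0.059 and -0.06.

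**Figure D1:**
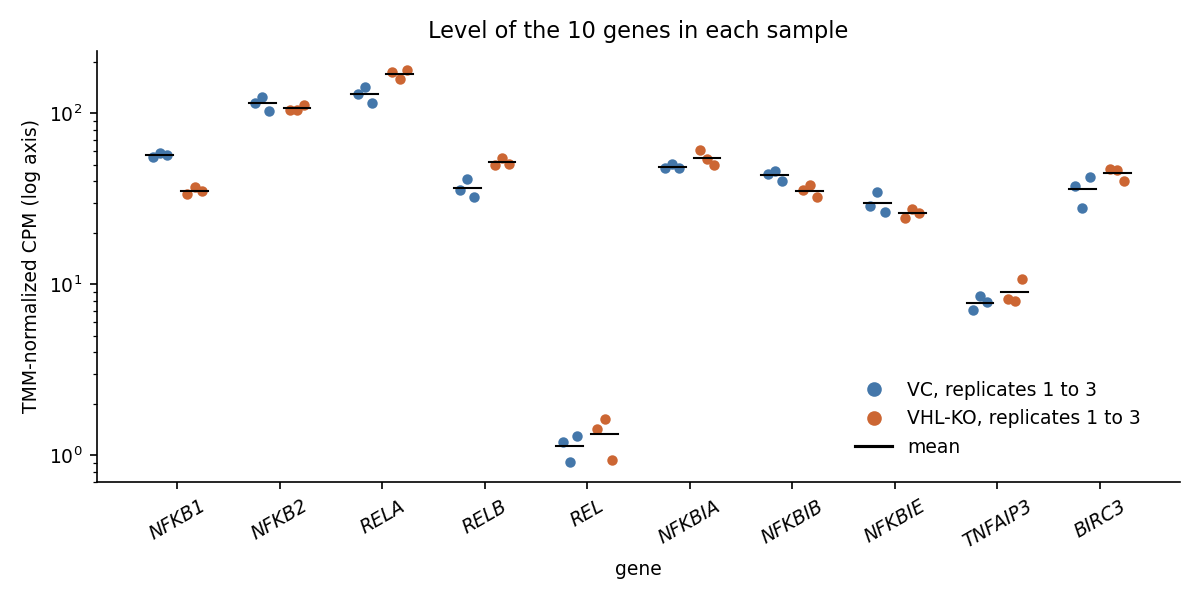
Level of each of the 10 genes in TMM-normalized CPM on a log axis, with 1 point for each VC (blue) and VHL-KO (orange) sample and a line at the group mean. NFKB1 lies lower and RELA and RELB lie higher in all 3 VHL-KO samples, and REL is near 1 CPM in both groups.

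Levels of different genes were compared per kilobase of 1 representative transcript (RPKM). In VC cells the order was RELA at 51.2 ± 5.54, NFKB2 at 37.9 ± 3.56, NFKBIB at 36.4 ± 2.64 and NFKBIA at 31.2 ± 0.945 RPKM (mean ± SD, n = 3). The ranges of NFKB2 and NFKBIB overlapped, although NFKB2 was slightly above NFKBIB within each VC sample. RELB at 16.1 ± 1.92, NFKB1 at 14.1 ± 0.345 and NFKBIE at 12.7 ± 1.79 RPKM formed a middle group whose ranges touched or overlapped. BIRC3 at 5.21 ± 1.06 and TNFAIP3 at 1.68 ± 0.160 RPKM were lower, and REL was the lowest at 0.102 ± 0.0180 RPKM. In VHL-KO cells NFKB1, at 8.68 ± 0.379 RPKM, stood below NFKBIE at 11.1 ± 0.660 RPKM in every sample, and NFKBIA at 35.1 ± 3.67 stood above NFKBIB at 29.6 ± 2.47 RPKM, again in every sample.

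NFKB1 (ENSG00000109320.13) encodes p105, the precursor of p50, and lies on the + strand of chromosome 4 from 102501330 to 102617302 in GRCh38. It had 55.7, 58.5 and 57.1 CPM in VC replicates 1 to 3 and 33.7, 36.8 and 35.1 CPM in VHL-KO replicates 1 to 3. The samples of each group lay close together and every VHL-KO sample was below every VC sample. The log2 fold change was -0.70, with a standard error of 0.10 and a 95% interval from -0.91 to -0.49 (edgeR adjusted p = 1.7e-06). NFKB1 was the only one of the 10 genes called in the same direction under all 15 alternatives in tool, scaling, filter, samples, block and offsets, with log2 fold changes from -0.89 to -0.56. In these bulk samples, fewer cells that express the gene and less of its RNA per cell cannot be told apart.

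NFKB2 encodes p100, the precursor of p52. It stood at 115, 125 and 103 CPM in VC samples and 104, 105 and 111 CPM in VHL-KO samples. The groups overlapped, and all 3 VHL-KO samples lay within the VC range. Its log2 fold change was -0.10, with a 95% interval from -0.29 to 0.10 (edgeR adjusted p = 0.378), and it was -0.013 without VC replicate 2. It was called lower with library size alone, at -0.29, and with the offsets, at -0.40, and it was 0.012 with upper quartile factors (edgeR adjusted p = 0.00745, 2.3e-06 and 0.926; 3.7e-07 to 0.926 across the alternatives).

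RELA encodes p65, the subunit of the most studied canonical dimer, with p50. Its levels were 129, 143 and 115 CPM in VC and 174, 158 and 178 CPM in VHL-KO samples. The lowest VHL-KO sample was above the highest VC sample, which was VC replicate 2. The log2 fold change was 0.40, with a standard error of 0.10 (edgeR adjusted p = 9.0e-04). RELB, the partner of p52 in the noncanonical route, had 35.5, 41.0 and 32.4 CPM in VC and 49.7, 54.9 and 50.7 CPM in VHL-KO samples. Again the groups did not overlap and VC replicate 2 was the highest VC sample. Its log2 fold change was 0.51, with a standard error of 0.11 (edgeR adjusted p = 2.6e-04). With the offsets neither gene was called, at 0.095 for RELA and 0.0011 for RELB (edgeR adjusted p = 0.182 and 0.99, the largest over the alternatives being 0.196 and 0.995). The calls stood under the other 13 alternatives, with the values nearest 0 under library size alone, at 0.21 for RELA and 0.32 for RELB.

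REL encodes c-Rel, a subunit known mainly from lymphoid cells. It had 41, 27 and 49 counts in VC against 38, 35 and 20 in VHL-KO samples, which is 0.909 to 1.29 CPM and 0.938 to 1.62 CPM. The groups overlapped, and at this depth the 95% interval of the log2 fold change ran from -0.44 to 0.89 around 0.22 (edgeR adjusted p = 0.566). REL was not called under any of the 15 alternatives, and its value depended on single samples, with 0.069 without VHL-KO replicate 2 and 0.42 without VHL-KO replicate 3, and was 0.028 with library size alone. Of its annotated exonic bases, 33.3% lie inside another annotated gene on the same strand, where the counting can leave reads out, so that its level is uncertain.

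Among the inhibitors, NFKBIA encodes IκBα, the classic inhibitor that is remade within the feedback loop. It stood at 48.0, 50.3 and 47.6 CPM in VC and 61.0, 53.7 and 49.7 CPM in VHL-KO samples. VHL-KO replicate 1 was the highest, and VHL-KO replicate 3 lay inside the VC range. The log2 fold change of 0.17 had a 95% interval from -0.038 to 0.39 (edgeR adjusted p = 0.149), and was 0.10 without VHL-KO replicate 1. Its sign depended on the scaling, with 0.29 under upper quartile factors, -0.021 under library size alone and -0.12 under the offsets (edgeR adjusted p = 0.0221, 0.868 and 0.168, the first and second being the ends of its range).

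NFKBIB encodes IκBβ, and its levels were 44.4, 45.9 and 39.9 CPM in VC and 35.5, 38.1 and 32.2 CPM in VHL-KO samples. Every VHL-KO sample was below every VC sample, by a narrow margin between VC replicate 3 and VHL-KO replicate 2. The log2 fold change was -0.30, with a standard error of 0.11 (edgeR adjusted p = 0.02). The call was lost with upper quartile factors, at -0.19, and without VC replicate 1 or 2 or VHL-KO replicate 1 or 3, at -0.30 to -0.24, while the offsets gave -1.04 (edgeR adjusted p between 1.3e-14 and 0.149 over its alternatives). NFKBIE, which encodes IκBε, had 28.6, 34.6 and 26.5 CPM in VC and 24.5, 27.6 and 26.0 CPM in VHL-KO samples. The groups overlapped, and VC replicate 2 stood apart above the other samples. Its log2 fold change of -0.20 was not called (edgeR adjusted p = 0.163). It was -0.063 without VC replicate 2 and -0.087 with upper quartile factors, and it was called lower with library size alone, at -0.39, and with the offsets, at -0.60 (edgeR adjusted p = 0.00909 and 1.8e-06; 5.6e-08 to 0.662 across the alternatives).

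TNFAIP3 encodes A20, an enzyme that edits ubiquitin chains and ends NF-κB signaling. It had 7.03, 8.52 and 7.90 CPM in VC and 8.24, 8.02 and 10.7 CPM in VHL-KO samples. The groups overlapped, with VHL-KO replicate 3 alone above the VC range. The log2 fold change was 0.20 (edgeR adjusted p = 0.299), 0.061 without VHL-KO replicate 3, 0.01 with library size alone, and 0.35 and called higher with the offsets (edgeR adjusted p = 0.0268; 0.021 to 0.961 across the alternatives). BIRC3 encodes cIAP2, a ubiquitin ligase of TNF receptor complexes that also helps to degrade NIK. It stood at 37.3, 27.9 and 42.3 CPM in VC and 47.1, 46.6 and 40.2 CPM in VHL-KO samples. The groups overlapped, since VHL-KO replicate 3 was below VC replicate 3, and VC replicate 2 was the lowest sample. BIRC3 was nevertheless called higher, at a log2 fold change of 0.32 with a standard error of 0.13 (edgeR adjusted p = 0.0353). The call was lost with library size alone, at 0.12, and without VC replicate 2, at 0.18, VHL-KO replicate 1, at 0.28, or VHL-KO replicate 2, at 0.29, and the value was 0.82 with the offsets (edgeR adjusted p between 7.8e-12 and 0.468 over its alternatives).

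**Figure D2:**
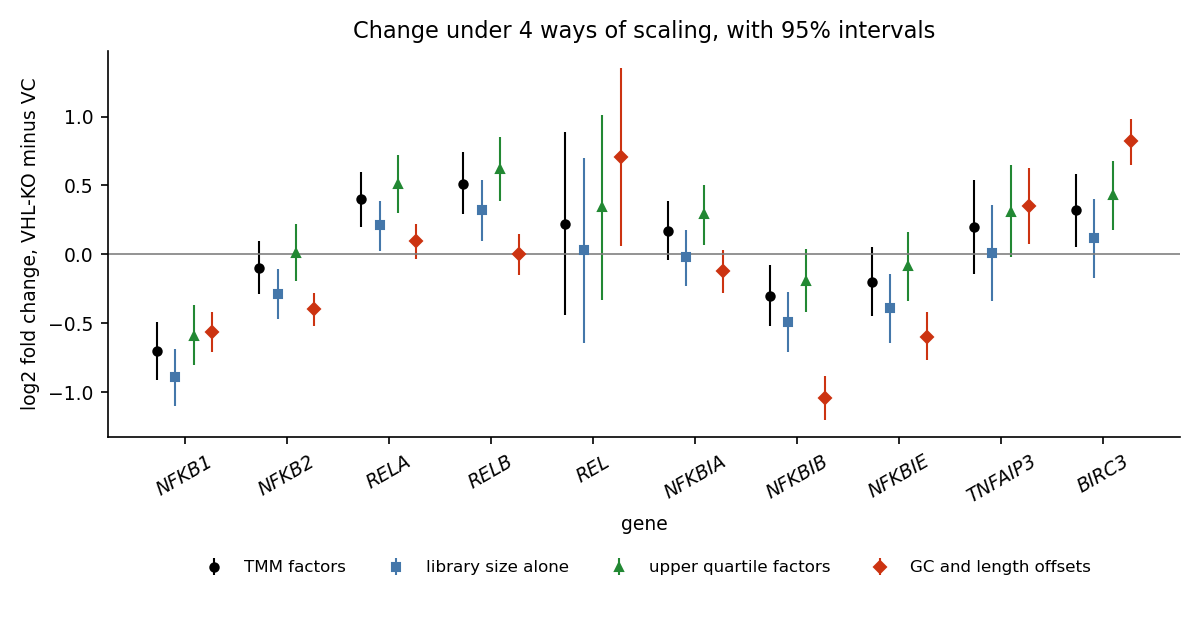
Log2 fold change (VHL-KO minus VC) of each of the 10 genes with TMM factors, library size alone, upper quartile factors and GC and length offsets, with 95% intervals from the edgeR fits. NFKB1 is below 0 in all 4, and NFKB2 and NFKBIA change sign between them.

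The fold changes of all genes followed the GC content of the transcript, with a slope of 0.411 in log2 per 10 percentage points over 10899 genes. Single VC samples also had slopes against their group mean, 0.154 in replicate 2 and -0.148 in replicate 3, against -0.00647 in replicate 1 and 0.0078, -0.0148 and 0.00696 in the VHL-KO replicates. VC replicate 2 was the highest VC sample for 8 of the 10 genes and the lowest for the remaining 2, BIRC3 and REL, which had the lowest GC contents at 35.8% and 38.4%. The genes tested within 2.5 percentage points of NFKB1 (50.1% GC) had a median log2 fold change of 0.034, against -0.70 for NFKB1. Those near RELA (58.6%) had a median of 0.32, against 0.40 for RELA, and those near RELB (64.9%) had 0.54, against 0.51 for RELB. The rises of RELA and RELB were near the median of genes of like GC content. Around NFKBIB (64.6%) the median was 0.51, against -0.30 for NFKBIB, around NFKBIE (60.4%) it was 0.39, against -0.20, and around NFKB2 (61.2%) it was 0.41, against -0.10. Around BIRC3 the median was -0.51, against 0.32 for BIRC3, and around REL it was -0.45, against 0.22 for REL (0.71 with the offsets, not called). The medians for NFKBIA (53.0%) and TNFAIP3 (49.3%) were 0.13 and 0.011, against 0.17 and 0.20 for the genes. The part of GC content in these changes was not tested, and offsets that remove its trend also remove any biological change that follows it.

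**Figure D3:**
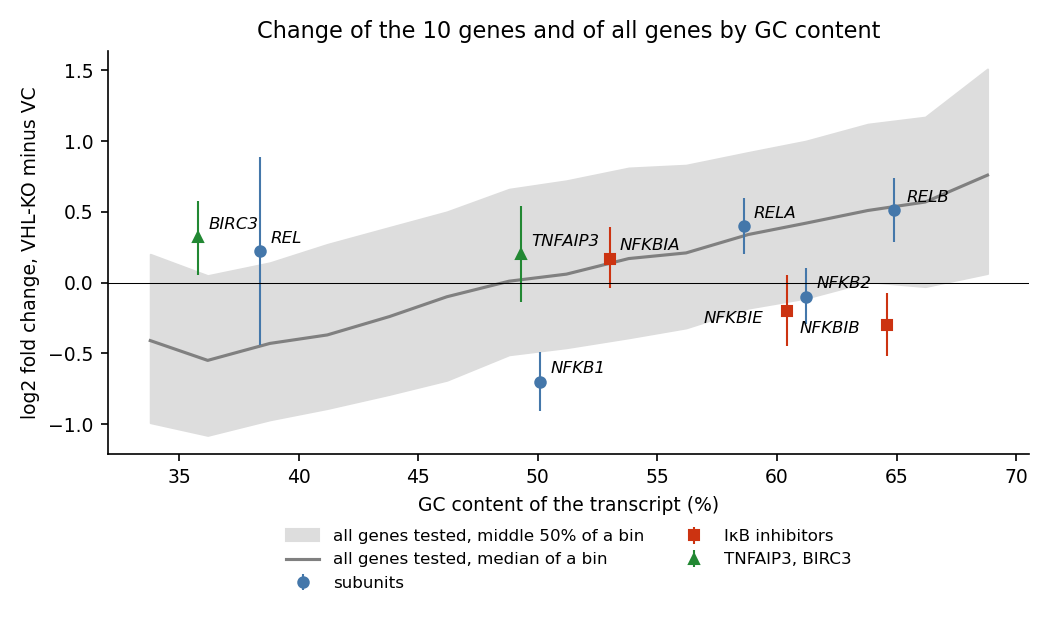
Log2 fold change (VHL-KO minus VC) against the GC content of the transcript for the 10 genes, with 95% intervals, over the median and the middle 50% of all genes tested in bins of 2.5 percentage points. RELA, RELB and NFKBIA lie near the median of all genes, while NFKB1 (-0.70), NFKBIB (-0.30) and NFKBIE (-0.20) lie below the middle 50% and BIRC3 (0.32) and REL (0.22) above it; with library size alone or upper quartile factors all points shift together.

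Ratios of the counts of paired genes within a sample need no scaling between libraries. With 3 samples against 3, the exact two-sided permutation test cannot give a p below 0.1, so none of the 5 ratios could pass 0.05. Groups without overlap were common, at 64.7% of all single genes tested, and the share among ratios of other genes was not computed. NFKB2 over NFKB1 was 2.06, 2.13 and 1.81 in VC against 3.08, 2.86 and 3.17 in VHL-KO samples. The ratio was higher in all 3 VHL-KO samples, 1.52 times on average (exact permutation p = 0.1, 0.167 adjusted over the 5 ratios). NFKBIA over NFKBIB was 1.08, 1.1 and 1.19 in VC against 1.72, 1.41 and 1.54 in VHL-KO samples, also without overlap (exact permutation p = 0.1, adjusted 0.167). NFKBIA over RELA was 0.372, 0.352 and 0.414 in VC against 0.35, 0.340 and 0.279 in VHL-KO samples. Here the VHL-KO samples were all lower, with the closest pair 0.35 and 0.352 (exact permutation p = 0.1, adjusted 0.167), and the log2 difference of -0.24 was -0.13 without VHL-KO replicate 3. RELB over RELA, at 0.275 to 0.287 in VC against 0.284 to 0.347 in VHL-KO samples, and REL over RELA, at 0.00636 to 0.0112 and 0.00526 to 0.0103, overlapped between the groups (exact permutation p = 0.3 and 0.6, adjusted 0.375 and 0.6). Without VHL-KO replicate 2 the log2 difference of RELB over RELA was 0.016 in place of 0.11, and without VHL-KO replicate 3 that of REL over RELA was 0.069 in place of -0.20. With the offsets the log2 difference of NFKB2 over NFKB1 was 0.16 in place of 0.60, that of NFKBIA over NFKBIB was 0.92 in place of 0.47, and that of NFKBIA over RELA was -0.22 in place of -0.24. Those of RELB over RELA and REL over RELA changed sign, to -0.094 and 0.61.

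**Figure D4:**
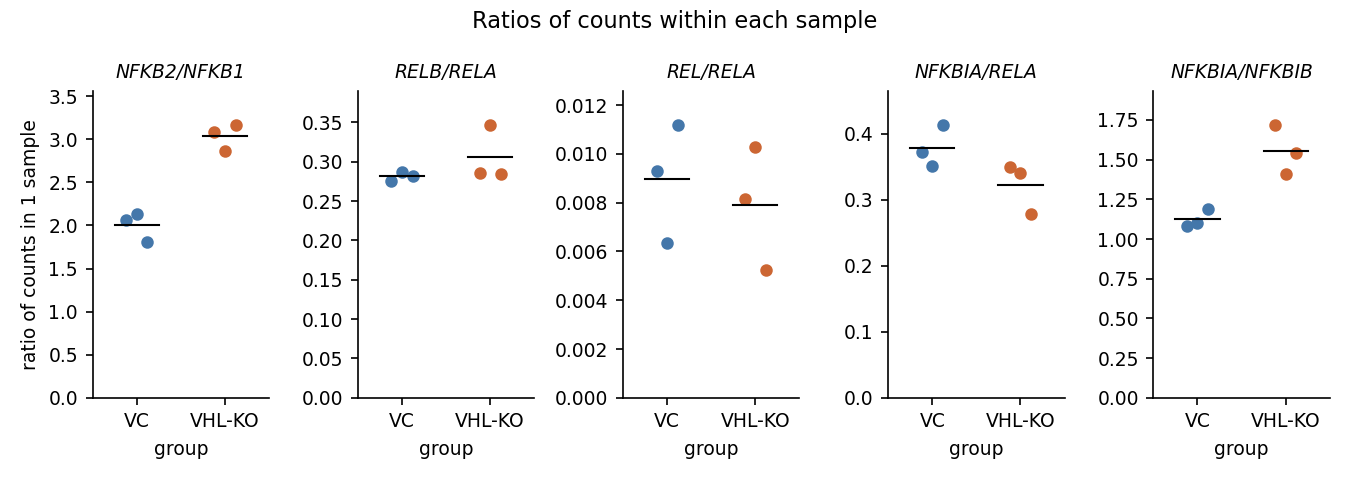
Ratio of the counts of paired genes in each VC (blue) and VHL-KO (orange) sample, 1 panel per ratio with its own axis from 0 and a line at the group mean. The groups separate for NFKB2/NFKB1, NFKBIA/RELA and NFKBIA/NFKBIB and overlap for RELB/RELA and REL/RELA.

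Pairs of the 10 genes under 2 percentage points apart in GC content were then compared, a choice made after seeing the data and given without a test. TNFAIP3 over NFKB1 was 0.126, 0.145 and 0.138 in VC against 0.244, 0.218 and 0.306 in VHL-KO samples. RELA over NFKBIE was 4.52, 4.14 and 4.35 in VC against 7.12, 5.73 and 6.86 in VHL-KO samples. NFKBIB over RELB was 1.25, 1.12 and 1.23 in VC against 0.714, 0.694 and 0.636 in VHL-KO samples. In each of these pairs the groups did not overlap, and the log2 differences of 0.89, 0.59 and -0.82 became 0.92, 0.69 and -1.04 with the offsets. NFKBIE over NFKB2, at 0.249 to 0.277 in VC against 0.234 to 0.262 in VHL-KO samples, overlapped. Of all single genes tested, 64.7% did not overlap, and the share among other pairs of like GC content was not computed.

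Summed per transcript length, RELA, RELB and REL stood at 67.1, 75 and 60.2 RPKM in VC and 91.4, 87.2 and 93.4 RPKM in VHL-KO samples. NFKB1 and NFKB2 together stood at 51.8, 55.8 and 48.3 RPKM in VC and 42.8, 43.9 and 45.5 RPKM in VHL-KO samples. The mRNA of subunits with a transactivation domain thus exceeded that of the p105 and p100 precursors 1.29 ± 0.0499 times in VC and 2.06 ± 0.0758 times in VHL-KO cells (mean ± SD, n = 3), and the groups did not overlap. NFKB1 made up 11.9 ± 1.01% of the subunit RPKM in VC and 6.45 ± 0.409% in VHL-KO cells, and RELA 42.9 ± 0.679% and 50.2 ± 2.03%. The summed IκB mRNA was 0.675, 0.654 and 0.694 times the summed subunit mRNA in VC and 0.591, 0.596 and 0.504 times in VHL-KO samples. All 3 VHL-KO samples were below the VC range. These sums use TMM-scaled levels without the GC and length offsets, and the part of GC content in them was not tested. How often such sums of other genes separate between the groups was not computed.

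Promoter sequence from RefSeq (GRCh38.p14), 250 bases before to 50 after the start of each gene, covered 8 of the 10 genes and was searched on both strands for the κB consensus, the DNA motif of NF-κB dimers. It was found in 5 of the 8 windows, against 10.8% of 27305 windows of all genes, 48.4% of 31 windows of the target list below and 25.2% of 107 windows of all pathway lists below. The stretches around the matches are shown with the matches in capitals.
NFKB1: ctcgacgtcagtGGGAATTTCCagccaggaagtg
REL: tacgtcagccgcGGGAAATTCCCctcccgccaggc
NFKBIA: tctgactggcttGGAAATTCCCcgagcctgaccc
TNFAIP3: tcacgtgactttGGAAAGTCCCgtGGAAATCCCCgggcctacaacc
BIRC3: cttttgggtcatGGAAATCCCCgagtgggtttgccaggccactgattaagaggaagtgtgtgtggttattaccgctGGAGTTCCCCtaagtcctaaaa
They lie at chr4:102501298-102501331 (+ strand) for NFKB1, chr2:60881515-60881549 (+) for REL, chr14:35404809-35404842 (- strand) for NFKBIA, chr6:137867180-137867225 (+) for TNFAIP3 and chr11:102317273-102317370 (+) for BIRC3. The match of NFKB1 begins 49 bases before the start that RefSeq gives, that of NFKBIA 81 bases before, those of TNFAIP3 67 and 55 bases before and those of BIRC3 199 and 135 bases before. In REL a pair of matches, 47 and 46 bases before the start, overlap. Of these 5 genes NFKB1 was called lower, BIRC3 higher, and REL, NFKBIA and TNFAIP3 were not called. The windows of NFKB2 and NFKBIB held no match. That of RELA held none either, but it lies wholly upstream of the RELA start in GENCODE, so the sequence around that start was not searched. A match is a description of the letters, and binding was not measured here.

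The rest of the pathway was read from 6 lists of 136 genes, of which 117 were tested. Of these, 36 rose and 46 fell, 70.1% in all against 59.7% of all genes tested, with a median log2 fold change of -0.038, which was 0.075 with upper quartile factors. With library size alone the split was 32 and 51, and over all genes tested it moved from 4958 and 5436 to 3764 and 6737. Upper quartile factors turned the split of the pathway genes, to 45 higher and 40 lower, and gave 5712 and 4668 over all genes tested. With the offsets the pathway genes stood at 41 higher and 49 lower, and all genes tested at 4661 and 5840.

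Of 14 ligands that activate NF-κB, 9 had too few reads to be tested, TNF, LTA, IL1A and IL1B among them. Of the 5 tested, 4 rose (80%, against 28.5% of all genes tested) and LTB did not pass the test, at -0.76 on the log2 scale (-1.56 and called lower with the offsets). LTB had 16, 15 and 17 counts in VC against 14, 3 and 3 in VHL-KO samples, and only VHL-KO replicate 1 reached the VC level. Its value ran from -1.72 to -0.45 across the alternatives. Among the 5 ligands, library size alone left 3 called higher, and the offsets gave 3 higher and 2 lower. IL18, an IL-1 family cytokine, had 20.6, 19.1 and 22.7 CPM in VC and 42.2, 44.9 and 45.3 CPM in VHL-KO samples. TNFSF14, which encodes LIGHT, a ligand of the lymphotoxin β receptor, had 1.2, 0.74 and 0.738 CPM in VC and 3.56, 3.75 and 2.63 CPM in VHL-KO samples. Neither gene overlapped between the groups, with log2 fold changes of 1.08 and 1.89 (edgeR adjusted p = 9.9e-09 and 2.3e-06). TNFSF13B, which encodes BAFF, had 11 to 29 counts in VC against 26 to 38 in VHL-KO samples and a log2 fold change of 1.18 (edgeR adjusted p = 0.009). CD70, a TNF family ligand of CD27, stood at 411, 452 and 390 CPM in VC and 521, 505 and 473 CPM in VHL-KO samples. Its rise of 0.26 on the log2 scale (edgeR adjusted p = 0.0134) was not called with library size alone, at 0.067, or after leaving out VC replicate 1 or either of VHL-KO replicates 1 and 2, at 0.23 to 0.25, and with the offsets CD70 was called lower, at -0.44 (edgeR adjusted p up to 0.46 over its alternatives).

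Of 17 receptors tested, 8 fell, 2 rose and 7 did not pass, a share called of 58.8% near the 59.7% of all genes tested. Their median of -0.44 was -0.19 with the offsets and -0.63 with library size alone. TNFRSF11A, the receptor RANK, fell from 5.59, 5.42 and 4.87 CPM in VC to 1.09, 1.90 and 2.11 CPM in VHL-KO samples. All 3 VHL-KO samples were far below the VC samples, at a log2 fold change of -1.66 (edgeR adjusted p = 1.4e-06). IL1RAP, the shared chain of IL-1 family receptors, fell by 0.95 on the log2 scale, TLR6, a Toll-like receptor, by 0.72, and NOD1, a cytosolic sensor of bacterial peptides, by 0.72 (edgeR adjusted p of 4.0e-04 or less). With the offsets IL1RAP and TLR6 were at -0.45 and -0.36. The receptors that rose, TNFRSF1A and LTBR, at 0.41 and 0.54, are named after their values were seen, and with the offsets they were at 0.074 and 0.065 and not called.

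Of 24 adaptors and ubiquitin enzymes tested, 6 rose and 11 fell (25% and 45.8%, against 28.5% and 31.2% of all genes tested), with a median of -0.19. The split depended on the scaling, with 9 higher and 10 lower under upper quartile factors (median -0.078), 5 and 13 under library size alone (-0.38) and 8 and 10 under the offsets (-0.11). UBE2N, which encodes the E2 enzyme UBC13 for K63-linked ubiquitin chains, stood at 88.4, 76.0 and 103 CPM in VC and 29.6, 31.6 and 30.7 CPM in VHL-KO samples. The fall, -1.54 on the log2 scale, was the largest of the list among called genes (edgeR adjusted p = 2.1e-11), but 41.6% of its exonic bases lie opposite another gene and it has near-identical copies, so its counts are uncertain. SHARPIN, a subunit of the linear ubiquitin ligase, rose from 57.5, 71.1 and 50.3 CPM to 153, 149 and 147 CPM, and TRADD, an adaptor of TNF receptor 1, from 36.3, 40.3 and 32.9 to 76.7, 76.3 and 71.8 CPM. The groups stood well apart for both, at 1.33 and 1.04 on the log2 scale, and the offsets lowered these to 0.62 and 0.37. MALT1, a protease of the CARD-BCL10 complex, fell by 0.99 in log2 (edgeR adjusted p = 1.2e-07), or by 0.53 with the offsets.

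Among 11 kinases and their partners, 7 fell and 4 did not pass, with a median of -0.39. The share called, 63.6%, was near that of all genes, of which 31.2% were called lower and 28.5% higher. With upper quartile factors 5 fell and 2 rose, and with the offsets 7 fell and 1 rose. CHUK, which encodes the kinase IKKα, had 16, 14.8 and 19.1 CPM in VC and 6.29, 6.44 and 6.66 CPM in VHL-KO samples. MAP3K14, which encodes NIK, had 128, 140 and 117 CPM in VC and 58.1, 58.9 and 61.8 CPM in VHL-KO samples. For both kinases of the noncanonical route the highest VHL-KO sample was far below the lowest VC sample, with log2 fold changes of -1.36 and -1.11 (edgeR adjusted p = 3.3e-08 and 5.1e-10), and -0.89 and -1.29 with the offsets. Of the exonic bases of MAP3K14, 15.1% lie opposite an antisense gene. MAP3K7, which encodes TAK1, and TAB2, its binding partner, fell by 0.96 and 0.98 in log2 (edgeR adjusted p of 2.0e-06 or less), or by 0.47 and 0.60 with the offsets.

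Of 24 other regulators, 9 rose and 8 fell (37.5% and 33.3%, against 28.5% and 31.2% of all genes tested). The list holds mostly negative regulators, but some of them also act as coactivators. Its median of -0.013 was 0.10 with upper quartile factors and -0.21 with library size alone. IRAK3, an inhibitory member of the IRAK family, had 39, 28 and 55 counts in VC against 3, 1 and 7 in VHL-KO samples. The groups did not overlap, and the log2 fold change was -2.86, with a standard error of 0.53 (edgeR adjusted p = 6.1e-05), and -3.77 without VHL-KO replicate 3. NKRF, a repressor that binds NF-κB sites, fell by 1.23 and TANK, a TRAF-binding protein, by 1.20 on the log2 scale, and PDLIM2, a ligase for nuclear RELA, rose by 1.22 on the log2 scale (edgeR adjusted p of 2.5e-07 or less). Of the exonic bases of NKRF, 21.0% lie opposite another gene. With the offsets PDLIM2 was at 0.58.

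Of 42 widely known target genes outside the 10, 36 were tested, 15 rose and 12 fell, 75% in all against 59.7% of all genes tested. Their median of 0.28 was 0.093 with library size alone (15 higher, 13 lower), 0.12 with the offsets (16 and 13) and 0.40 with upper quartile factors (19 and 10). SOD2, the mitochondrial superoxide dismutase, stood at 114, 114 and 128 CPM in VC and 529, 559 and 573 CPM in VHL-KO samples. The groups were far apart, at a log2 fold change of 2.22 with a standard error of 0.091 (edgeR adjusted p = 6.2e-16). SAA2, an acute-phase apolipoprotein gene, rose from 0.556, 0.539 and 0.474 to 5.09, 4.63 and 3.61 CPM (log2 fold change 3.08), but it is a near-identical copy of SAA1, so reads may be split between them. LCN2, which encodes the iron-sequestering protein lipocalin, had 2, 11 and 3 counts in VC against 51, 28 and 27 in VHL-KO samples, and CCL5, a chemokine, 6, 14 and 14 against 30, 33 and 33 counts. Both rose without overlap, at 3.19 and 2.04 on the log2 scale, from levels under 1 CPM (edgeR adjusted p = 1.4e-05 and 2.4e-04), and LCN2 was at 4.37 without VC replicate 2, which held 11 of its VC counts. These 4 genes were named by size of change, and all rose. The largest falls among the 12 targets called lower were CD83, FAS and NUAK2, named after their values were seen. They were at -1.57, -1.47 and -1.17 on the log2 scale, and at -1.54, -0.97 and -1.30 with the offsets.

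**Figure D5:**
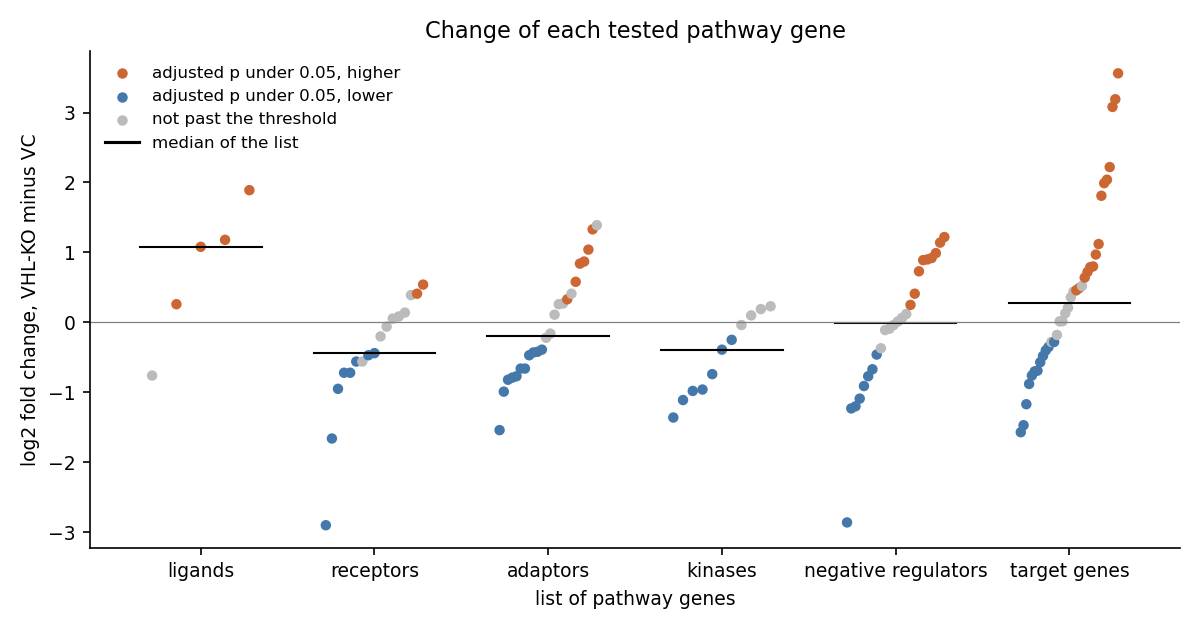
Log2 fold change (VHL-KO minus VC) of each tested gene in 6 lists of pathway genes, in order within a list, colored by whether edgeR called it higher (orange), lower (blue) or neither (grey), with a line at the median. Kinases hold 7 genes called lower and 4 not called (5 lower and 2 higher with upper quartile factors), and targets hold 15 called higher and 12 lower (19 and 10 with these factors).

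Markers of other cell types were read in the same samples. Of 12 leukocyte markers, 7 had 3 counts or fewer in every sample, with CD3E, CD3D, CD2, MS4A1 and NKG7 at 0 throughout and PTPRC at 1 count or less. The list summed to 2.52, 3.47 and 2.13 CPM in VC and 4.90, 5.89 and 4.13 CPM in VHL-KO samples, with CD14 the most abundant in every sample, at 1.70, 1.68 and 1.29 against 4.12, 5.24 and 3.56 CPM. CD14 was called higher, at 1.47 on the log2 scale (edgeR adjusted p = 7.0e-06), and was at 0.84 with the offsets. CSF1R, named after its values were seen, went the other way, with 18, 27 and 20 counts in VC against 0, 6 and 5 in VHL-KO samples. It was called lower, at -1.97 on the log2 scale and from -2.56 to -1.32 across the alternatives (edgeR adjusted p = 0.018, up to 0.0799 across the alternatives). Endothelial markers (6) summed to 0.168 to 0.237 CPM in VC and 0.324 to 0.711 CPM in VHL-KO samples, with PECAM1 the most abundant by mean in VHL-KO and KDR in VC, each at most 14 counts per sample, and TEK and CLDN5 at 0. PECAM1 was called higher, at 2.73 on the log2 scale (edgeR adjusted p = 0.0117, up to 0.0648 across its alternatives). KDR went the other way, from 4, 0 and 9 counts in VC to 0 in every VHL-KO sample, and was not tested. Fibroblast markers (7) summed to 43.3, 47.3 and 37.2 CPM in VC and 30, 27.2 and 25.5 CPM in VHL-KO samples, led by COL1A1, with COL3A1 and LUM at 0. COL1A1 was called lower, at -0.42 on the log2 scale, and so was PDGFRB, named after its values were seen, at -1.94 (edgeR adjusted p = 0.00424 and 7.7e-09). Of 10 kidney tubule and epithelial markers 8 had 10 reads or more in a sample, summing to 1713, 1927 and 1562 CPM in VC and 2389, 2312 and 2324 CPM in VHL-KO samples. KRT8 was the most abundant, PAX2 was at 0 and CDH1 had at most 3 counts. The sum was higher in all 3 VHL-KO samples, while the direction of single genes was mixed. PAX8, KRT8, KRT18 and CDH16 were called higher, at 0.52, 0.51, 0.37 and 3.42 on the log2 scale, and LHX1 and EPCAM lower, at -1.67 and -1.42, all but KRT8 named after their values were seen. With the offsets KRT8 was at 0.022 and not called, and KRT18 was called lower, at -0.15. A count of 0 leaves room for 3 counts, which is 0.079 to 0.141 CPM, as far as counting error goes.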

How the data were processed

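RNA-seq of 3 VC and 3 VHL-KO samples was grouped by the genotype and replicate number in the labels. The authors trimmed reads with Trim Galore and cutadapt, aligned them with STAR to GRCh38.p13 and used SAMtools and HTSeq, per the submitters' processing notes; the deposited values are raw read counts per gene, not normalized. Versions, strandedness and counting mode are not given in the sources used here.

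Counts were compared with edgeR 4.0.16 in R 4.3.3 by its quasi-likelihood F test (two-sided) after TMM scaling, on the 17401 genes that reached 10 reads in any sample, with Benjamini-Hochberg adjustment over all of them and a threshold of 0.05. Standard errors are the absolute log2 fold change divided by the square root of F. Within-sample ratios were compared by exact permutation. GC contents and lengths came from canonical transcripts of GENCODE release 44, in which 201 genes of the table, SOD2 among them, had no match.

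The genes named are the 10 members, VHL, the 4 largest called changes without overlap and with a mean of at least 1 CPM in a group in each pathway list, the 3 largest in the HIF list, and the most abundant gene of each marker list; others are said to be chosen after their values were seen or are listed for being at 0 or untested. The members and lists were chosen with earlier results of these data known. Alternatives (15) were DESeq2 1.42.0, scaling by upper quartile, by relative log expression or by library size alone, a filter of 10 reads in every sample or none, leaving out each replicate in turn, the replicate number as a block, offsets per library for GC content and length (natural splines with 5 degrees of freedom), and the block and offsets together. Between replicates of a group the counts scattered beyond Poisson noise (chi-square over degrees of freedom 6.43 to 35.3). Figures were drawn with matplotlib 3.10.9.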

Additional observations from a re-analysis of the deposited data

How the results depend on the processing

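The number of genes called, 10394, stayed between 9215 and 10501 over 15 alternatives, the pathway genes called higher between 32 and 45 and called lower between 40 and 51, and the members called higher between 2 and 4. The members called lower, 2, were 1 with upper quartile factors, 4 with library size alone, with GC and length offsets and with the replicate block plus these offsets, and 1 to 2 with a replicate left out. Over the 10 members and 15 alternatives, 124 of 150 fits kept the direction and the side of the threshold, 13 lost a call, 9 gained a call and 4 changed sign: NFKB2 at 0.012 with upper quartile factors, and NFKBIA at -0.021 with library size alone and at -0.12 with the offsets, also with the replicate block. Over 28 other genes, VHL and those taken by rule from the pathway and HIF lists, 405 of 416 fits kept both, 9 lost the call and CD70 changed sign, to -0.44 with the offsets, with and without the replicate block; in 4 genes the filter of 10 reads in every sample left no value. The count includes SOD2 with the offsets, although SOD2 had no GC content or length, so these fits are no test of the offsets for it. Outside this count, EGLN1 was called in 8 of 15 alternatives, TNFRSF1A, LTBR and KRT8 in 13 of 15, PECAM1 in 12 of 13 and CSF1R in 12 of 14, LTB gained 2 calls, and KRT18 was at -0.15 with the offsets. Of the log2 differences of ratios, NFKB2 over NFKB1 moved from 0.60 to 0.16 and NFKBIA over NFKBIB from 0.47 to 0.92 with the offsets, and RELB over RELA changed sign from 0.11 to -0.094 and REL over RELA from -0.20 to 0.61. With a replicate left out NFKB2 over NFKB1 lay between 0.53 and 0.65, NFKBIA over NFKBIB between 0.39 and 0.54, NFKBIA over RELA between -0.30 and -0.13, RELB over RELA between 0.016 and 0.16 and REL over RELA between -0.43 and 0.069, at 20 to 49 counts of REL per sample. The cause of these changes was not tested. Replicate numbers were not treated as a pairing in the main fit, and the labels state none. Deviations of same-numbered samples correlated at 0.218, -0.109 and 0.0732, and those of unlike-numbered samples at -0.254 to 0.0828. With 3 samples per group these values cannot settle whether the samples were paired. With the replicate block 10284 genes were called and no call of a member changed.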
